A study of Rattus norvegicus with 9 samples.

Results

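The untreated rat spleen was described from the 3 control libraries of a study of 9 rat spleen libraries, which also holds 3 libraries from animals given thioacetamide (TAA) and 3 from animals given TAA with celecoxib. The control columns of the deposited FPKM table were used, with the matching raw counts, and all 34408 gene entries of that table were described. The 6 treated libraries were not analysed here. Per the labels, the control samples are spleen of wild-type rats under the treatment label control, with the cell type given as splenocytes and RNA isolated with TRIzol. Strain, age and any vehicle given to the controls are not stated, and the labels do not say that each library came from a separate animal, so the spread between the libraries may be partly technical.

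The spleen filters blood and hosts immune responses in separate compartments. Its red pulp is a meshwork of venous sinuses in which macrophages take up old red cells and recycle haem iron. Its white pulp holds B cell follicles and T cell zones, laid out by stromal cells that secrete chemokines, and a marginal zone with its own macrophages lies between the compartments. In rodents the red pulp also keeps some red cell, platelet and granulocyte production. The labels give both spleen and splenocytes, so whether whole tissue or a suspension of its cells was used is not settled. Values below come from mixed cells, so fewer cells of a type and less RNA per cell cannot be told apart.

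FPKM is the number of reads on a gene per kilobase of its length, scaled by a total for each library, so levels can be compared between genes. The totals implied by the deposited values were 0.984, 1.03 and 1.05 times the summed counts of controls 1, 2 and 3. Values are listed throughout in the order control 1, control 2 and control 3. The libraries held 16848246, 17530220 and 16657664 counts. For a gene of 1000 bases a single count equalled 0.0603, 0.0552 and 0.0569 FPKM, and a count of 0 allows up to 3 counts, or 0.181, 0.166 and 0.171 FPKM, from counting error alone. Values at or near 0 are given as listed, and whether read assignment or annotation lowered them was not tested for any gene.

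Control 1 stood apart from the other two. Over the 12997 genes at 1 FPKM or more in all 3 libraries, Spearman's rho was 0.949 between control 1 and control 2, 0.936 between control 1 and control 3 and 0.979 between control 2 and control 3. More than 2-fold differences were found for 1067 genes between control 1 and control 2, for 1294 between control 1 and control 3 and for 317 between control 2 and control 3. The common biological coefficient of variation, which is the spread beyond counting error estimated by edgeR over all genes, was 0.262 with all 3 libraries and 0.165 without control 1. Albumin (Alb), the main plasma protein made by hepatocytes, was listed at 42.1, 0 and 0.0275 FPKM. The median log2 ratio of control 1 to the mean of the other two was 0.16 for genes under 500 bases long and -0.15 for genes of 4000 bases or more. Each result below is therefore given by library, and the mean of controls 2 and 3 is given for several values that control 1 moves. The part of liver RNA, gene length or RNA quality in the differences of control 1 was not tested.

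The spleen transcriptome was concentrated in a small number of very abundant RNAs. Of the 34408 entries, 12997 were at 1 FPKM or more in all 3 libraries, 6615 at 10 FPKM or more, 650 at 100 FPKM or more and 82 at 1000 FPKM or more, while 13186 were listed at 0 in all 3. Among the 22250 protein-coding entries, 11726 (52.7%) were at 1 FPKM or more throughout. The 100 genes with the highest mean held 45.5%, 39.1% and 38.3% of the summed FPKM, or 41.0% ± 3.97 (SD, n = 3), and 38.7% as the mean of controls 2 and 3. Of these 100 genes, 51 encode cytosolic ribosomal proteins and 9 are protein-coding genes of the mitochondrial genome.

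Tmsb4x, which encodes thymosin beta 4, a protein that binds monomeric actin, had the highest mean, with 15143, 12348 and 10961 FPKM. It was the most abundant entry in controls 2 and 3 and the third in control 1. AABR07060872.1 came next at 20506, 7659 and 7881 FPKM, an unnamed protein-coding entry that spans chr4:98337367-98523473 in the coordinates of the files and carries no description. Control 1 lay above the other two for this entry by more than 2-fold, and the mean of controls 2 and 3 was 7770.1 FPKM against 12015 FPKM over all 3. Hba-a1, an adult alpha globin gene, was at 10726, 9435 and 7623 FPKM, and Hbb, a beta globin gene, at 6199, 8248 and 3254 FPKM. Igh-6, described in the file as an immunoglobulin heavy chain, was at 18450.4, 3783 and 5088 FPKM, so that it ranked second in control 1 but sixteenth in control 2 and ninth in control 3. Its mean was 9107 FPKM over all 3 libraries and 4435 FPKM over controls 2 and 3.

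Mitochondrial genes of the respiratory chain filled the next places. Mt-co3, a subunit of cytochrome c oxidase, was at 9065, 6713 and 6381 FPKM, Mt-co1 at 7658, 6819 and 6187 FPKM, Mt-atp6, a subunit of the ATP synthase, at 8210.4, 6264 and 5688 FPKM and Mt-co2 at 7040.1, 5485 and 4488 FPKM. All of these were highest in control 1 and lowest in control 3. Eef1a1, the elongation factor that brings aminoacyl-tRNA to the ribosome, was by contrast nearly level at 6369, 6607 and 6454 FPKM.

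Immune and housekeeping genes shared the rest of the 30 highest. Cd74, the invariant chain that escorts MHC class II molecules, was at 5177, 4681 and 4517 FPKM, a narrow spread beside that of Igh-6. Jchain, which joins the units of secreted IgM and IgA, was at 6390.4, 4045 and 3528 FPKM, with control 1 above the others. AABR07034739.1, described in the file as an immunoglobulin lambda constant chain, was at 6756, 3979 and 3958 FPKM. Tpt1, a translationally controlled protein, was at 5779, 4716 and 3834 FPKM, and Actb, cytoplasmic beta actin, at 3251, 3459.5 and 3919.9 FPKM. Actb was lowest in control 1.

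Further places went to Rplp1, Rpl41, Rps15, Rpl36, Rpl13, Rplp0, Rpl35, Rps27 and Rps23, to the ribosomal protein-like loci LOC108352650 and LOC100911847, to LOC100360087, Mt-cyb and Hba-a2. Their means ran from 2824 FPKM for Rps23 to 4573 FPKM for LOC108352650. LOC100360087, described as like ferritin light chain 1, an iron store protein, was lowest in control 1, at 2965, 4745 and 5336 FPKM. Ranks of neighbours were not firm: 5 of the 29 adjacent pairs among the 30 highest kept their order in every library. Membership was firmer, since 27 of the 30 were among the 30 highest in each library and 90 of the 100 highest were among the 100 highest in each.

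**Figure D1:**
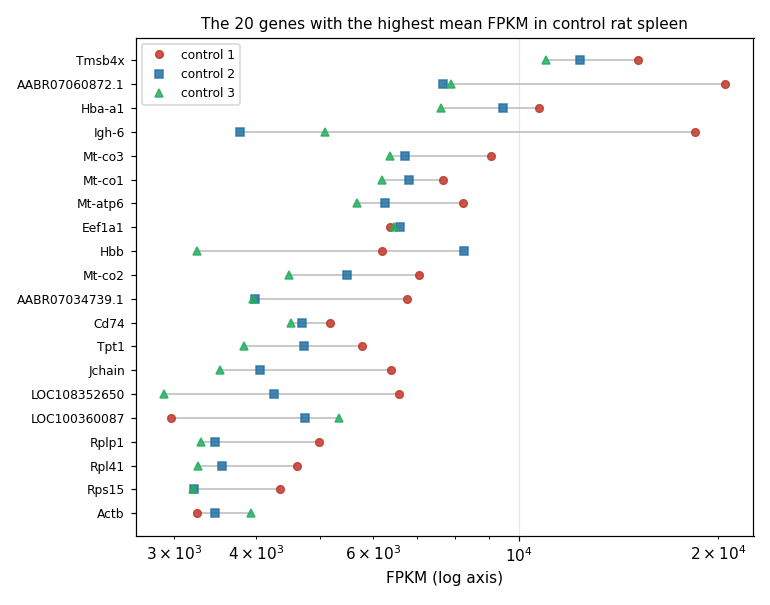
FPKM of the 20 genes with the highest mean over the control libraries, on a log axis, with 1 point per library and a line from the lowest to the highest. AABR07060872.1 and Igh-6 reach 20506 and 18450 FPKM in control 1 and lie at 7881 FPKM or below in the other libraries, while Eef1a1 spans 6369 to 6607 FPKM.

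The promoters of the highest genes are shown because TATA boxes and pyrimidine runs were counted more often among them than among genes of middle level. Sequences come from RefSeq for the build GRCr8, whose coordinates are not those of the deposited files, and 13713 of the 22089 distinct protein-coding symbols had a promoter in that table. Each line runs 5′ to 3′ on the strand of the gene, from 45 bases before the start site through the first 8 bases of the transcript. Capitals mark a TATA box (the letters TATAA on the gene's strand, beginning 40 to 20 bases before the start) or a pyrimidine run (a C followed by at least 5 bases that are C or T, beginning from 5 bases before to 5 bases after the start site).
Hba-a1, chr10:15842573-15842625 (minus strand, mean 9261 FPKM): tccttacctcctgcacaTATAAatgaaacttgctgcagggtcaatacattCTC
Hba-a2, chr10:15829131-15829183 (minus strand, mean 3344 FPKM): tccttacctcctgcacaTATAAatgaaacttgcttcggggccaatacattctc
Eef1a1, chr8:88225062-88225114 (minus strand, mean 6477 FPKM): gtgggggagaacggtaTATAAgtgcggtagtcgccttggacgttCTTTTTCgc
Rplp0, chr12:46718383-46718435 (minus strand, mean 3163 FPKM): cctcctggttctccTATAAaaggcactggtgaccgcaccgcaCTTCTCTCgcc
Rps27, chr2:177964599-177964651 (minus strand, mean 2938 FPKM): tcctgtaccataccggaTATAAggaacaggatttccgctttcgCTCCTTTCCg
Rps15, chr7:10068108-10068160 (minus strand, mean 3590.2 FPKM): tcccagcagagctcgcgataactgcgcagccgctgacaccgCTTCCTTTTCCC
Rplp1, chr8:71290865-71290917 (minus strand, mean 3909.8 FPKM): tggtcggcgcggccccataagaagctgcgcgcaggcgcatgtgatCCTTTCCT
Tmsb4x, chrX:30761566-30761618 (plus strand, mean 12817 FPKM): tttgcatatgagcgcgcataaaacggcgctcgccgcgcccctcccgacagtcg
Both alpha globin genes hold a TATA box at the same distance from the start, and the capitals that end the line of Hba-a1 open a pyrimidine run that goes on past the line. Eef1a1, Rplp0 and Rps27 hold both features, Rps15 and Rplp1 the pyrimidine run alone, and Tmsb4x neither. A pyrimidine run at the start was found in 33 of the 58 promoters of cytosolic ribosomal protein genes in the table (56.9%), in 9.75% of all 27457 promoters and in 9.65% of the 9274 promoters of genes with a mean of 1 FPKM or more. The Eef and Eif translation factor genes had it in 11 of 59 promoters (18.6%).

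Promoter composition differed along the scale of levels. TATA boxes were found in 6.62% of 2721 promoters of genes under 0.1 FPKM, in 1.34% of 5003 promoters at 10 to 100 FPKM and in 15.8% (9) of 57 at 1000 FPKM or more. Over the same bins the median count of CG dinucleotides in the 250 bases before the start was 4, 17 and 15. Pyrimidine runs were found in 9.41%, 9.19% and 45.6% of these promoters. Ribosomal protein genes make up 51 of the 100 highest genes, as above, and these counts describe sequence, not factor binding.

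Grouping the entries by class showed how much of the RNA each kind of gene took. Cytosolic ribosomal proteins held 18.37%, 15.98% and 16.16% of the summed FPKM, with 78 of 81 entries at 1 FPKM or more in all 3 libraries and a median level of 1271 FPKM. Because these genes are short, their share of counts was smaller, at 9.48%, 7.71% and 7.61%. Protein-coding genes of the mitochondrial genome held 6.33%, 5.85% and 5.52% of FPKM, and within this class the levels ran from 125, 105 and 46.9 FPKM for Mt-atp8 to the values of Mt-co3 above. Haemoglobin genes held 3.31%, 3.79% and 2.71%, and LOC100134871, a further beta globin entry, stood at 2594, 2441 and 2277 FPKM. Near-identical globin copies can split reads between them, and the part of this in the levels of the members or of the class was not tested.

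Immunoglobulin chains differed most between libraries among the large classes. They held 3.84%, 1.54% and 1.84% of FPKM, or 2.41% ± 1.25 (SD, n = 3), and 1.69% as the mean of controls 2 and 3. These shares cover only the 7 entries described as immunoglobulin chains. Entries with no description, AABR07060872.1 among them, were not counted, so the full share may be higher. Ighm, the entry of the IgM constant region, was far more even than Igh-6, at 2060.5, 1644 and 1642 FPKM. Ighg1, a constant region of IgG, was at 3.14, 1.80 and 8.30 FPKM, low beside both. The entry Ighm spans chr6:138054662-138662511 in the files, and Igh-6 lies inside that span on the same strand, so reads of the overlapping entries may have been divided between them. Unnamed gene models with an immunoglobulin variable domain numbered 100, with 42 at 1 FPKM or more throughout, and the highest was at 563, 177 and 176 FPKM.

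Several smaller housekeeping classes were measured. Translation factors (Eef and Eif) held 1.99%, 2.16% and 2.30% of FPKM with 65 of 66 entries at 1 FPKM or more, and their median coefficient of variation (CV, the SD over the mean of the 3 libraries) was 8.94%. Eef2, which moves the ribosome along the message, was at 1706, 1501 and 1700.2 FPKM. Nuclear-encoded subunits of the respiratory chain held 1.66%, 1.60% and 1.53%, with Atp5f1e highest at 718, 607 and 513 FPKM and Cox4i1 at 619, 468 and 482 FPKM. Proteasome subunits held 0.509%, 0.504% and 0.514%, with a median CV of 10.3% and Psmb4 highest at 335, 263 and 252 FPKM. Cathepsins, the proteases of the lysosome, held 0.238%, 0.348% and 0.336%, with a median CV of 19.7%, Ctsz at 349, 404 and 388 FPKM and Ctsb at 302, 452 and 383 FPKM. Vacuolar proton pump genes, which acidify that compartment, held 0.143%, 0.166% and 0.162%, with Atp6v0c at 207, 217 and 222 FPKM.

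Several classes were close to silent. Of 1146 olfactory receptor entries, 2 were at 1 FPKM or more in all 3 libraries and 1092 were listed at 0 in all 3. Olr1585 was the highest of them at 2.96, 5.93 and 6.85 FPKM. None of 154 vomeronasal receptor entries reached 1 FPKM throughout, and the highest, Vom2r44, was at 0.0781, 0.0873 and 0.0328 FPKM. Of 47 keratins 3 reached it, and Krt18 led with 2.25, 1.25 and 1.41 FPKM. Among the 43 genes of the Hox clusters 4 reached it, led by Hoxb2 at 4.52, 5.22 and 3.78 FPKM, Hoxb4 at 3.42, 4.07 and 3.68 FPKM and Hoxb3 at 2.60, 2.74 and 2.56 FPKM. The sweet taste receptor subunit Tas1r2, chosen by rank within the 38 taste receptor entries, was at 5.71, 5.58 and 6.84 FPKM.

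Marker lists of 20 cell types were ordered by the median FPKM of their members, averaged over the libraries. Macrophages of the red pulp led, at 55.7, 131 and 132 FPKM (mean 106, and 131 without control 1), followed by B cells at 87.7, 72.8 and 73.9 FPKM (mean 78.1). T cells were at 42.7, 33.2 and 31.7 FPKM (mean 35.9) and plasma cells at 34.3, 33.6 and 36.2 FPKM (mean 34.7). Lists near the bottom were marginal zone macrophages (mean 1.13), mesothelium (0.842) and mast cells, basophils and eosinophils (0.838). Over members at 1 FPKM or more only, these were 21.2, 3.98 and 2.67 FPKM, white pulp stroma 40.1 in place of 17.97 FPKM and nerve and Schwann cells 3.51 in place of 1.24 FPKM, and the marginal zone list holds only 3 genes. Red pulp macrophages were above B cells in controls 2 and 3 but below them in control 1. Of the 19 neighbouring pairs in this order 6 kept it in all 3 libraries, so most neighbours did not differ beyond their spread. A list's level depends on which markers it holds, and it is not a share of cells.

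**Figure D2:**
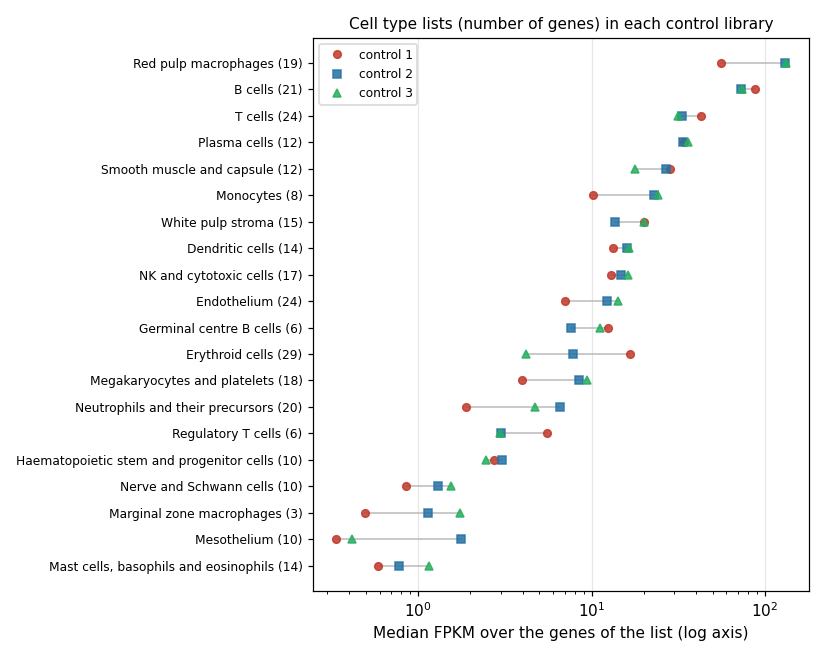
Median FPKM of the genes of each cell type list in each control library, on a log axis, with the number of genes in brackets. Red pulp macrophages span 55.7 to 132 FPKM and erythroid cells 4.22 to 16.7 FPKM, while plasma cells stay between 33.6 and 36.2 FPKM.

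Red pulp macrophage genes were abundant, and control 1 was the lowest library in 18 of 19. For comparison, control 1 was lowest in 40.6% and highest in 43.4% of the 14193 genes with a mean of 1 FPKM or more, and control 3 was lowest in 33.4%. C1qa, a chain of the complement component that recognises immune complexes and dying cells, was at 684, 1023 and 826 FPKM, C1qb at 386, 671 and 665 FPKM and C1qc at 397, 891 and 758 FPKM. Hmox1, haem oxygenase, which opens the haem ring and frees its iron, was at 325, 822 and 1045 FPKM. Its level in control 1 was less than the lowest of the other two, and controls 2 and 3 were closer together. Among members chosen after their values were seen, Spic, the factor needed for red pulp macrophages, was at 55.7, 127 and 93.6 FPKM, Cd5l at 112, 254 and 271 FPKM and the haemoglobin scavenger receptor Cd163 at 33.8, 131 and 115 FPKM. Slc40a1, ferroportin, the iron exporter these cells rely on, was listed at 0.167, 0.153 and 3 FPKM, and Vsig4 at 0.299, 1.84 and 1.17 FPKM, the lowest members of the list. The part of read assignment or annotation in these low values was not tested.

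Monocyte, dendritic and marginal zone markers were mixed. Lyz2, lysozyme of macrophages and monocytes, was at 2069.9, 2011 and 1555 FPKM and Plac8 at 614, 629 and 589 FPKM, both close to even. Itgam, the alpha chain of complement receptor 3, was at 39.7, 114 and 114 FPKM, and Treml4 at 9.28, 30.7 and 34.2 FPKM, with control 1 lowest in each. In the dendritic cell list Irf8, a factor of the conventional lineage, was at 294, 290.5 and 259 FPKM and Batf3, another, was at 65.9, 59 and 47.2 FPKM. Sirpa was at 60.4, 98.2 and 107 FPKM. Siglec1, sialoadhesin of metallophilic macrophages, was at 26.2, 32.9 and 39 FPKM, whereas Marco was at 0.493, 1.14 and 1.75 FPKM and Cd209a at 0.123, 0 and 0 FPKM.

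B cell markers were steady. All 21 members were at 1 FPKM or more. Their median CV was 6.71%, against 16.6% over all genes and 11.8% over genes with a mean of 30 to 100 FPKM. The list median lay in that range. Within this small spread, control 1 was the highest library in 15 of the 21, against 43.4% of all genes. Cd79b, a signalling chain of the B cell receptor, was at 439, 342 and 317 FPKM, and its partner Cd79a at 204, 179 and 195 FPKM. Ms4a1, which encodes CD20, was at 291, 262 and 287 FPKM, and the tetraspanin Cd37 at 274, 265 and 266 FPKM. Germinal centre genes lay lower, at a list median of 12.5, 7.58 and 11.2 FPKM. Gcsam led them with 26.9, 25.3 and 27.3 FPKM and Bcl6, the repressor that defines the germinal centre programme, was at 12.6, 17.6 and 16 FPKM.

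Plasma cell genes other than Jchain were led by Mzb1, a chaperone of antibody secretion, at 390.2, 249 and 225 FPKM. Xbp1, the factor that expands the secretory apparatus, was at 156, 127 and 125 FPKM, and Creld2 at 134, 116 and 82.5 FPKM. Control 1 was the highest library in 9 of 11 members with a mean of 1 FPKM or more, against 43.4% of all genes. Derl3 was listed at 0 in all 3 libraries.

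T cell markers were all at 1 FPKM or more, and control 1 was highest in 18 of 24, against 43.4% of all genes. Cd3g, a chain of the T cell receptor complex, was at 229.6, 166 and 127 FPKM, and Lck, the kinase that starts its signal, at 133, 86.9 and 89.7 FPKM. Tcf7, a factor of naive and memory cells, was at 130.1, 108 and 111 FPKM. Cd4, which rat macrophages also carry, went the other way at 93.6, 136 and 134 FPKM. Regulatory T cell genes were low and ordered the same way, with control 1 highest in 6 of 6: Tnfrsf18 was at 13.2, 11 and 10.9 FPKM and Foxp3, chosen after its values were seen, at 2.47, 1.48 and 1.46 FPKM. Cytotoxic genes were led by the chemokine Ccl5 at 114, 236 and 291 FPKM, the receptor Klrk1 at 102, 77.4 and 53.3 FPKM and the granule protein Nkg7 at 53.9, 51.6 and 61.9 FPKM. Ctsw was at 42.3, 35.1 and 36.1 FPKM, and Prf1, perforin, named after its values were seen, at 26.3, 45 and 41.6 FPKM.

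Erythroid genes showed the widest spread of the larger lists, with a median CV of 75.1%. Control 1 was highest in 24 of 28 members with a mean of 1 FPKM or more and control 3 lowest in 24 of 28, against 43.4% and 33.4% of all genes. The list median was 16.7, 7.78 and 4.22 FPKM, and 5.997 FPKM as the mean of controls 2 and 3. Ahsp, the chaperone of free alpha globin, was at 211, 56.6 and 8.79 FPKM, a graded order that is also seen outside the naming rule in Slc4a1, the anion exchanger of the red cell membrane, at 51.6, 17 and 2.50 FPKM. Car2, Alas2 and Klf1 followed the same order, at 155, 61.6 and 18.1 FPKM, 85.5, 51.5 and 38 FPKM and 18.8, 11.4 and 3.35 FPKM. Hba-a1 and Hba-a2 had this order too, over a narrower range, while Hbb was highest in control 2. Gata1, the lineage's master factor, was listed at 0.647, 0 and 0 FPKM, and the part of read assignment or annotation in this was not tested.

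Platelet and granulocyte genes were lowest in control 1. For megakaryocytes and platelets this held in 15 of 16 members and for neutrophils and their precursors in 16 of 18, against 40.6% of all genes. Pf4, a chemokine of platelet granules, was at 301, 271 and 338 FPKM and so departed from the list's order. Itga2b, the platelet integrin chain, was at 12.5, 17.8 and 24.7 FPKM, Clec1b at 15.1, 20.6 and 22.8 FPKM and Ppbp at 7.76, 22.8 and 21 FPKM. S100a9 and S100a8, the calcium-binding pair of neutrophils, were at 82.3, 346 and 282 FPKM and 61, 265 and 209.7 FPKM. Defensin genes were closer to even, with Defa5 at 22.5, 30.8 and 27.6 FPKM and Np4 at 14.1, 20.8 and 22 FPKM. Gp5 and Gp1bb, receptor chains for von Willebrand factor, and the granule gene Ltf were under 0.1 FPKM in every library. Progenitor genes were scarce, led by Flt3 at 15.3, 18 and 16.9 FPKM and Kit at 5.48, 7.201 and 6.26 FPKM.

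Of 14 mast cell, basophil and eosinophil genes 6 were at 1 FPKM or more in all 3 libraries. Ccr3, an eotaxin receptor, led at 27, 71.9 and 72.8 FPKM, and Prg2 was at 2.25, 3.18 and 8.48 FPKM. The mast cell tryptases Tpsb2 and Tpsab1 were under 0.1 FPKM in all 3 libraries.

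Structural cells gave 4 lists with unlike patterns. Endothelial genes were lowest in control 1 in 17 of 22, against 40.6% of all genes, with a list median of 7.01, 12.3 and 14.2 FPKM. Plvap, which forms the diaphragms of fenestrated vessels, was at 139, 259 and 311 FPKM, and Eng, a co-receptor for TGF-beta, at 28.5, 62.9 and 57.9 FPKM. Stab2, a scavenger receptor of sinus-lining cells, was chosen after its values were seen and was at 4.41, 25.8 and 39.1 FPKM. Cldn5, a tight junction gene, was listed at 0 throughout. White pulp stroma was highest in control 1 in 8 of 12 members with a mean of 1 FPKM or more, against 43.4% of all genes. Ccl21, the chemokine that draws T cells and dendritic cells into the T zone, was at 3163, 1004 and 943 FPKM. Its mean was 1703 FPKM, and 973 FPKM over controls 2 and 3. Ccl19, which shares its receptor and was named after its values were seen, was at 129, 46.3 and 44.3 FPKM. Cxcl12, on the same list and given below, went the other way and was lowest in control 1. Cxcl13, which draws B cells to follicles, was at 218, 86.7 and 92.2 FPKM. Mfge8 and Clu, made by follicular dendritic cells, were at 622, 355 and 367 FPKM and 437, 189 and 212 FPKM.

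Smooth muscle and capsule genes were led by Tagln at 306, 315 and 188 FPKM, Myl9 at 175, 232 and 190.5 FPKM and Acta2 at 145, 112 and 63.8 FPKM. Tagln and Myl9 were highest in control 2 and Acta2 in control 1. Mesothelial genes rested on Msln at 41.5, 41.5 and 25 FPKM and Wt1 at 4.86, 11.7 and 11.4 FPKM, since the keratins Krt18 and Krt8 were near 1 FPKM. Nerve and Schwann cell genes were led by Mbp, a myelin protein, at 9.66, 10.9 and 10.1 FPKM, and Nefl and Th, markers of axons and of adrenergic neurons, were under 0.1 FPKM in every library.

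**Figure D3:**
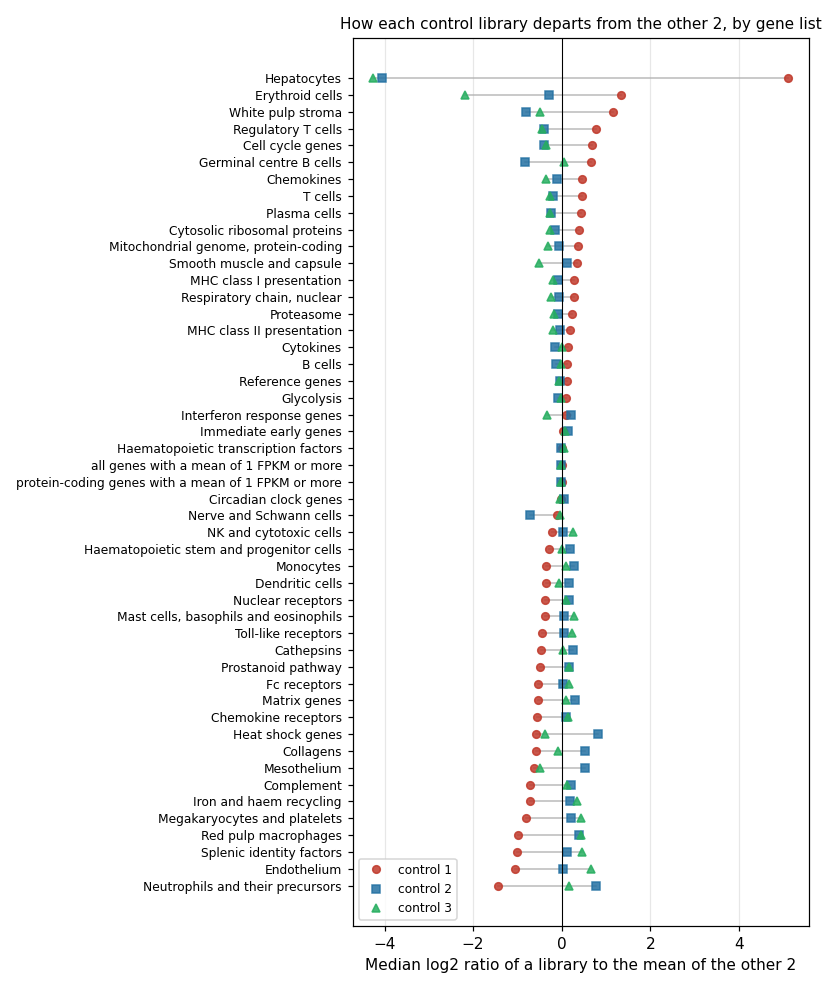
Median log2 ratio of each control library to the mean of the other two, over the members of each list with a mean of 1 FPKM or more, for lists with at least 5 such members. Control 1 lies at 1.34 for erythroid cells and 0.68 for cell cycle genes and at -1.45 for neutrophils and -0.98 for red pulp macrophages.

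These departures were computed on FPKM, where the median ratio of control 1 over all genes was 0.01. With TPM, which sets the summed values of the libraries equal, that median was -0.22, and the ratio of control 1 was lower by about that step for the lists named here. Several lists with a ratio slightly above 0 were below 0 on TPM, among them B cells (0.12 on FPKM and -0.12 on TPM), MHC class II presentation (0.19 and -0.05), interferon response genes (0.09 and -0.14) and reference genes (0.11 and -0.12). Erythroid (1.34 and 1.13), white pulp stroma (1.15 and 0.91), red pulp macrophage (-0.98 and -1.22) and endothelial (-1.06 and -1.30) ratios kept theirs.

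Tissues beside the spleen were represented weakly. Pancreatic islet genes were listed at 0, 6 of 6 in all 3 libraries, and the stomach genes Tff1, Tff2 and Atp4b likewise. Among 14 hepatocyte genes in the file 1 was at 1 FPKM or more throughout: Tf, transferrin, at 44.5, 114 and 106 FPKM. Ttr, transthyretin, was at 9.21, 0 and 0 FPKM, a pattern like that of Alb, and Serpina1 was at 3.84, 0.0313 and 0 FPKM. Hpx was at 4.82, 0.247 and 0.436 FPKM. Of the 6 hepatocyte genes with a mean of 1 FPKM or more, all but Tf reached that floor only through control 1. A count of the highest library among them is therefore set by the floor and is not compared with all genes. The pancreatic elastases Cela1 and Cela2a were at 4.53, 11.9 and 14.4 FPKM and 3.06, 2.67 and 4.51 FPKM. The median of the acinar list was 0.0483, 0.0686 and 0.697 FPKM, highest in control 3. Named after their values were seen, Ctrb1 was at 0, 0 and 1.62 FPKM and Prss1 at 0.150, 0.0686 and 1.35 FPKM. Cel was near even at 0.205, 0.241 and 0.248 FPKM. The part of pancreatic RNA in control 3 was not tested. Adipocyte genes were represented by Cfd at 218, 584 and 342 FPKM and Fabp4 at 105, 281 and 439 FPKM, which macrophages and endothelium also express, while Adipoq, Plin1 and Lep were under 0.1 FPKM.

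Antigen presentation by MHC class II depends on paired alpha and beta chains, on the invariant chain and on the proteases that trim it. The rat MHC is named RT1. RT1-Da, an alpha chain, was even at 912, 851 and 810.0 FPKM. RT1-Ba, the alpha chain of the other class II pair, was at 935, 9.89 and 11.5 FPKM, far higher in control 1 than in the other two, on 21100, 244 and 275 counts. Its partner RT1-Bb was at 256, 54.8 and 44.9 FPKM and RT1-Db1 at 488, 211 and 162 FPKM, each highest in control 1 by a smaller margin. Over controls 2 and 3 the means were 10.7 FPKM for RT1-Ba, 49.8 FPKM for RT1-Bb and 186 FPKM for RT1-Db1, against 319, 118 and 287 FPKM over all 3 libraries. The transactivator Ciita, without which class II genes are silent, was even at 49.8, 44.5 and 42.1 FPKM, and so were the processing enzymes Ctss, at 266, 266 and 235 FPKM, and Ifi30, at 268, 252 and 227 FPKM. RT1-DMa and RT1-DMb, which encode the peptide editor of class II, were at 0.209, 2.07 and 0.295 FPKM and 1.66, 0.285 and 0.686 FPKM, low beside RT1-DOa at 75.9, 47.5 and 53.2 FPKM and RT1-DOb at 56, 77.6 and 67.6 FPKM. Ciita and the RT1-DM and RT1-DO genes were named after their values were seen. RT1 genes vary in sequence between rat strains, and the part of sequence differences from the reference in these values was not tested.

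Promoters of the class II genes are shown because RT1-Ba and RT1-Da share a promoter element but not a spread. Capitals mark a CCAAT box (CCAAT or its complement ATTGG, both strands, in the 250 bases before the start), with 14 bases on each side.
RT1-Da, chr20:4515352-4515384 (plus strand, mean 857 FPKM): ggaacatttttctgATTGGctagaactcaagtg
RT1-Ba, chr20:4577000-4577032 (plus strand, mean 319 FPKM): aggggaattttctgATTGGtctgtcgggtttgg
RT1-Bb, chr20:4604161-4604193 (minus strand, mean 118 FPKM): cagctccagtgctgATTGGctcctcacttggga
RT1-Db1, chr20:4560199-4560231 (minus strand, mean 287 FPKM): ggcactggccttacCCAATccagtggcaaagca
Cd74, chr18:56527003-56527035 (plus strand, mean 4792 FPKM): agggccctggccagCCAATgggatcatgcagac
The element was found in 8 of the 10 list promoters in the table, in 34.3% of all promoters and in 35.8% of promoters of genes with a mean of 1 FPKM or more.

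Class I presentation had a median CV of 14.5% over 17 genes, and class II 12.5% over 10. The common biological coefficient of variation gave the opposite order, at 0.226 for class I and 0.787 for class II. Without control 1 it was 0.115 and 0.0971. B2m, the light chain of all class I molecules, was at 2424, 2131 and 1856 FPKM, and the heavy chain RT1-A2 at 397, 238 and 196 FPKM. Calr and Pdia3, chaperones of class I loading, were at 399, 536 and 451 FPKM and 295, 321 and 279 FPKM. Of the 18 members in the file 16 were at 1 FPKM or more in all 3 libraries. Psme1 was listed at 0 throughout. Across all 31 RT1 entries, 22 were at 1 FPKM or more, and their summed share was 0.572%, 0.352% and 0.342% of FPKM.

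**Figure D4:**
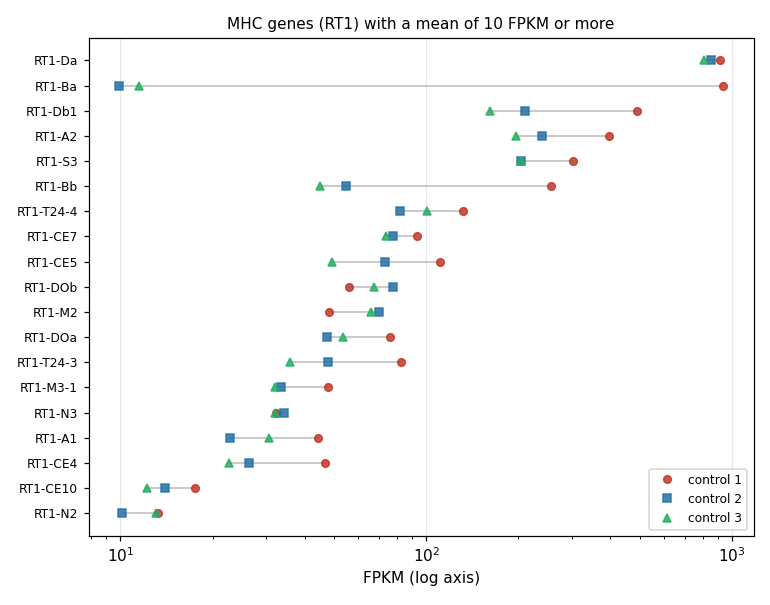
FPKM of the RT1 genes with a mean of 10 FPKM or more in each control library, on a log axis. RT1-Da stays between 810 and 912 FPKM while RT1-Ba runs from 9.89 to 935 FPKM and RT1-Bb from 44.9 to 256 FPKM.

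Interferon-stimulated genes, the antiviral genes switched on by the factors that interferons activate, were expressed at rest. Of 29 in the file 28 were at 1 FPKM or more in all 3 libraries, and control 3 was the lowest library in 19, against 33.4% of all genes. Ifi27 led at 295, 471 and 184 FPKM, followed by Irf7, the factor that amplifies interferon production, at 174, 238 and 156 FPKM, the tether of budding virus Bst2 at 146, 255 and 160.0 FPKM and the antiviral GTPase Mx1 at 119.7, 123 and 89.4 FPKM. Control 3 was highest in 3 of the 29, among them Ifit1, named after its values were seen, at 0.0875, 1.17 and 11.5 FPKM. The interferon genes themselves were low, with Ifng at 1.66, 1.19 and 1.56 FPKM and Ifnb1 at 0, 0.199 and 0 FPKM.

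The interferon-stimulated response element, the site bound by the factors that interferons activate, was searched in promoters as TTTC and TTTC with 2 bases of any kind between them, on both strands, in the 250 bases before the start. The 13 of 20 list promoters that held it (65.0%) compare with 3.29% of all promoters and 2.63% of promoters of genes with a mean of 1 FPKM or more. Capitals mark the element in 5 of them. These are not the 5 highest, since Xaf1 (mean 32.9 FPKM), which also holds it, lies above Oas1a.
Ifi27, chr6:128355214-128355251 (plus strand, mean 317 FPKM): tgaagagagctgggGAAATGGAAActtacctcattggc
Irf7, chr1:205800069-205800106 (minus strand, mean 189 FPKM): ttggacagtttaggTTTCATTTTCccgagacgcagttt
Bst2, chr16:18255069-18255106 (minus strand, mean 187 FPKM): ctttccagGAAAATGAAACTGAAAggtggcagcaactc
Ifit3, chr1:241527268-241527305 (plus strand, mean 37.3 FPKM): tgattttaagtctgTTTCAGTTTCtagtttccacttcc
Oas1a, chr12:41330417-41330454 (plus strand, mean 17.8 FPKM): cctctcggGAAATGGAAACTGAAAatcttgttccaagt
In Bst2 and Oas1a, 2 overlapping matches make a run of 3 units.

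Heat shock genes, which encode protein chaperones, were highest in control 2 in 12 of 12 members with a mean of 1 FPKM or more, where control 2 was highest in 25.5% of all genes. The list median was 27.5, 97.2 and 44.2 FPKM. Hsp90ab1 was at 693, 1114 and 792 FPKM, Hspa8 at 369, 768 and 434 FPKM, the mitochondrial co-chaperone Hspe1 at 244, 303 and 190.2 FPKM and Dnaja1 at 98.2, 258 and 143 FPKM. Hspa1b, the inducible member, was named after its values were seen, at 0.909, 17.5 and 7.18 FPKM. Time from removal of the tissue to RNA isolation is not given in the sources used here, and its part was not tested. The heat shock element, searched as GAA, TTC and GAA with 2 bases between units on both strands, was found in 4 of 11 list promoters (36.4%), against 0.597% of all promoters.
Hsph1, chr12:10427318-10427358 (plus strand, mean 56.6 FPKM): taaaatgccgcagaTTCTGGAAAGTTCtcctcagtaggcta
Hspa8, chr8:50080445-50080485 (plus strand, mean 524 FPKM): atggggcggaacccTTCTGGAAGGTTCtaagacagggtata
Hspe1, chr9:64084253-64084293 (plus strand, mean 246 FPKM): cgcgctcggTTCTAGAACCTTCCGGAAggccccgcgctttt
Hspd1, chr9:64084248-64084287 (minus strand, mean 116 FPKM): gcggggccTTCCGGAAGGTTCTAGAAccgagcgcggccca
Hspe1 and Hspd1 lie head to head, and their lines overlap on opposite strands, so they hold 1 shared pair of overlapping matches.

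Cell cycle genes were all at 1 FPKM or more, and control 1 was highest in 27 of 27, against 43.4% of all genes. Pcna, the sliding clamp of DNA replication, was at 122, 89.2 and 89.6 FPKM, and Mcm3 and Mcm7, parts of the replicative helicase, at 63.7, 49.4 and 51.8 FPKM and 45.5, 30.8 and 29 FPKM. Rrm1, which makes deoxynucleotides, was at 34.6, 22.1 and 22.6 FPKM. The list median was 19.7, 10.2 and 9.63 FPKM, and 9.92 FPKM as the mean of controls 2 and 3. An E2F site, searched on both strands as TTTCGCGC or TTTGGCGC, was found in 6 of 21 list promoters. The first form was in 5 of them, against 0.262% of all promoters, and the second in 3, against 0.426%. The forms overlap on opposite strands in Mcm5 and Mcm6.
Mcm7, chr12:22163209-22163244 (minus strand, mean 35.1 FPKM): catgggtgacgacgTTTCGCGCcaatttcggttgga
Mcm5, chr19:13488586-13488621 (plus strand, mean 16.6 FPKM): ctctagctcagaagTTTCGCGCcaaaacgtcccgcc
Cdk1, chr20:19265146-19265181 (plus strand, mean 14.3 FPKM): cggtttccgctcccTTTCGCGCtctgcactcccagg
Tyms, chr9:120776099-120776134 (minus strand, mean 10.4 FPKM): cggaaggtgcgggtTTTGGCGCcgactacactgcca
CCAAT boxes were in 15 of the 21 (71.4%).

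Secreted signals differed by family, with a list median of 1.37, 0.911 and 1.13 FPKM for cytokines and 8.60, 6.34 and 6.21 FPKM for chemokines. Of 43 cytokine genes 19 were at 1 FPKM or more in all 3 libraries, beside 52.7% of all protein-coding entries. Tgfb1, which restrains immune cells and builds matrix, was at 113, 140.1 and 169.6 FPKM, Il16 at 70.2, 71.3 and 70.2 FPKM, the inflammatory Il1b at 44, 73.6 and 74.4 FPKM and the alarmin Il33 at 55.5, 32.3 and 35.6 FPKM. Il3, Il5, Il9, Il17a, Il17f, Csf3, Epo and Thpo were listed at 0 throughout. Of 35 chemokines 24 were at 1 FPKM or more, and besides Ccl21, Pf4, Ccl5 and Cxcl13 above, Cxcl12, which retains lymphocytes and plasma cells, was at 59.98, 109 and 99.6 FPKM. Its receptor Cxcr4 led the chemokine receptors at 77.6, 138 and 111 FPKM, followed by Ackr3, which also binds Cxcl12, at 40.6, 80.6 and 65.4 FPKM. Ccr7, the receptor for Ccl21 and Ccl19, was at 76.9, 55.3 and 53.5 FPKM.

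Unc93b1, which carries nucleic acid-sensing Toll-like receptors to endosomes, was at 101, 120.3 and 119 FPKM, and the adaptor Myd88 at 34.9, 40.8 and 44.3 FPKM. Tlr7 led the receptors at 26.6, 48.9 and 41 FPKM, with Tlr8 at 7.40, 27 and 27.3 FPKM. Fcer1g, the signalling chain shared by Fc receptors, was at 298, 564 and 570.3 FPKM, and Fcgrt, which rescues IgG from degradation, at 144, 269 and 236 FPKM. Fcmr, the IgM receptor of B cells, was at 170.0, 156 and 146 FPKM. In the complement list, the C1q chains and Cfd led, and Cfb, factor B of the alternative pathway, was listed at 0 in all 3.

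The enzymes and receptors of prostanoid synthesis are the pathway that celecoxib targets through cyclooxygenase 2. Ptgs2, which encodes cyclooxygenase 2, was at 0.262, 0.202 and 0.247 FPKM in the untreated spleen, under 1 FPKM in every library. Ptgs1, which encodes the constitutive cyclooxygenase 1, was at 10.3, 14.1 and 15 FPKM. Every library was higher for Ptgs1 than for Ptgs2, and control 1 was the lowest for Ptgs1. No order of the libraries is drawn from Ptgs2 at its level. Ptges3, a co-chaperone also named as a prostaglandin E synthase, was at 143, 177 and 132 FPKM, and Hpgds, the haematopoietic prostaglandin D synthase, at 25.3, 84.5 and 82.4 FPKM. The prostaglandin E receptors Ptger1 and Ptger4 were at 19.1, 22.6 and 21.4 FPKM and 22.1, 18.2 and 20.3 FPKM. Of 18 members in the file 13 were at 1 FPKM or more in all 3 libraries.

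Transcription factors were present across all levels. Of 1533 annotated entries 809 (52.8%) were at 1 FPKM or more in all 3 libraries, close to the 52.7% of all protein-coding entries. The transcription factor entries held 1.95%, 2.31% and 2.42% of FPKM. Ybx1, a cold shock domain protein, was highest at 273, 282 and 309 FPKM. Besides Irf8 and Irf7, the leading entries were Sub1 at 229, 212 and 183 FPKM, Klf2, which keeps lymphocytes quiescent and circulating, at 194, 185 and 198 FPKM, and Ets1 at 178, 173 and 181 FPKM. Klf2, Ets1, Hmga1, Jund, Ybx1, Irf8 and Zfp36l1 had CVs of 2.27% to 7.71%. Hmgb2, a chromatin protein, spread more, at 244, 117 and 105 FPKM. Xbp1, Atf4, Tcf7, Nr1h3 and Ybx3 completed the 15 highest. Among haematopoietic factors in the list of 36, Ikzf1 and Spi1 were named after their values were seen, at 78.9, 97 and 93 FPKM and 69.8, 82.2 and 76.8 FPKM.

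Factors that specify the spleen in the embryo were still expressed. All 7 were at 1 FPKM or more in every library, and control 1 was the lowest in 6, against 40.6% of all genes. Tcf21 was at 30.8, 55.9 and 68.6 FPKM, Nr2f2 at 22, 35.5 and 34.6 FPKM and Tlx1, without which no spleen forms in the mouse, at 21, 23.8 and 28.5 FPKM. Nkx2-5 was the one highest in control 1, at 16, 14.5 and 12.2 FPKM. Wt1, given above, and Nkx3-2 at 2.76, 6.07 and 8.39 FPKM were lower. Nuclear receptors were led by Nr1h3, a sterol sensor of macrophages, at 85.4, 131 and 132 FPKM, by Nr1h2 at 57.2, 55.7 and 57.6 FPKM, and by Rxra at 21.7, 39.9 and 44.9 FPKM. Of 48 nuclear receptors 24 were at 1 FPKM or more, and Pgr, Nr1h4, Nr2e1 and Nr2e3 were listed at 0.

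Genes used as references in quantitative PCR differed in how level they were. Eef1a1, given above, had a CV of 1.87%, and Ywhaz was at 285, 291 and 295 FPKM and Sdha at 75.9, 79.6 and 76.7 FPKM. Ppia was at 1163, 963 and 889 FPKM, Actg1 at 605, 566 and 637 FPKM, Pgk1 at 203, 169.9 and 181 FPKM and Gusb at 26.3, 24.3 and 23.9 FPKM. Tbp was at 10.8, 12.4 and 12.1 FPKM. Tfrc, the transferrin receptor, was graded from control 1 down to control 3, at 31.7, 22 and 12.8 FPKM. Polr2a went the opposite way at 32.6, 40.3 and 50.1 FPKM. Rpl13a was at 61.2, 44.5 and 34.9 FPKM while AABR07045322.1, an entry described as Rpl13a-like, was at 326, 260.4 and 224 FPKM, and Hprt1 was at 0.296, 0.361 and 0.512 FPKM, so that reads of near-identical copies may have been divided for some of these genes. Over the 16 members with a mean of 1 FPKM or more the median CV was 9.38%.

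Iron, matrix, clock and early response genes filled in the picture of the resting tissue. Ncoa4, which delivers ferritin for breakdown, was at 69.6, 118 and 114 FPKM, and Slc48a1, a haem transporter of the lysosome, at 43.2, 124 and 125 FPKM. Fth1, the ferritin heavy chain, was listed at 0 in every library, although spleen is a store of ferritin, and Ftl1, chosen after its values were seen, was at 11, 14.3 and 21.6 FPKM, far below the ferritin-like LOC100360087 given above; how reads of ferritin copies were assigned is not given in the sources used here. Sparc led the matrix genes at 199, 326 and 329 FPKM, followed by Bgn at 167, 191 and 202 FPKM, Fbln5 at 75.2, 90.04 and 88.4 FPKM and Col4a1 at 47.5, 98 and 87.4 FPKM. Among clock genes Dbp was at 26.5, 21.2 and 21.5 FPKM and Per1 at 9.88, 16.2 and 18 FPKM. Jund led the immediate early genes, Ier2 was at 82.9, 77.6 and 77.6 FPKM and Junb at 78.7, 87.5 and 70.4 FPKM, while Fos, named after its values were seen, was at 2.35, 17.3 and 16.2 FPKM. Glycolytic genes were even, with a median CV of 9.08%, and Aldoa led at 256, 290.1 and 329 FPKM.

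The highest entries annotated as non-coding were LOC100361933, a ribosomal protein S12-like pseudogene, at 1484, 1029 and 1086 FPKM and AC128792.2, a pseudogene with no description, at 544, 1386 and 1583 FPKM. The mitochondrial ribosomal RNA entries AY172581.9 and AY172581.24 were at 1015, 591 and 362 FPKM and 892, 522 and 342 FPKM. Ubb, the ubiquitin gene that the annotation files under pseudogenes, was at 543, 718 and 622 FPKM.

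Hairpin entries of miRNAs measure fragments of the precursor or host transcript in such libraries, not mature miRNA. Of 443 entries with a Mir symbol 24 were at 1 FPKM or more in all 3 libraries and 359 were listed at 0. Among those chosen after their values were seen, the red cell miRNA genes Mir144 and Mir451a had the library order of the erythroid list, at 29.1, 7.31 and 0 FPKM and 38.5, 8.43 and 0 FPKM, on 40, 11 and 0 and on 46, 11 and 0 counts. Mir223, a myeloid miRNA gene, was lowest in control 1, like the neutrophil list, at 0.548, 11 and 7.76 FPKM, on 1, 22 and 15 counts. Mir142, found in blood cells of all lineages, was at 280.4, 101 and 52.8 FPKM. Their mature sequences (RefSeq, GRCr8) are given because the lineage miRNAs are named by them, with the seed, bases 2 to 8, in capitals.
rno-miR-144-3p, chr10:63459446-63459465: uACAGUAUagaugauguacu
rno-miR-451-5p, chr10:63459585-63459606: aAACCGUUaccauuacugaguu
rno-miR-223-3p, chrX:65151450-65151470: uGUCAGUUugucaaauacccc
rno-miR-142-3p, chr10:73055155-73055177: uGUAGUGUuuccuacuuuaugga
No seed is shared among these 4, and Mir144 and Mir451a are neighbours on chromosome 10.

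Y-linked genes were expressed in all 3 libraries. Eif2s3y was at 46.6, 37.9 and 35.2 FPKM, an entry named Ddx3 on the Y chromosome at 29, 27.5 and 22.3 FPKM and Kdm5d at 10.5, 10.7 and 11.1 FPKM.

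Spread between the libraries exceeded counting error for most genes. Over the 14193 genes with a mean of 1 FPKM or more the median CV was 16.6%, against 4.82% from counting error. Without control 1 it was 7.87%. The ratio of the observed to the counting CV was higher at higher levels: at 1 to 3 FPKM the median CV was 30.4% against 13.6% from counting, at 30 to 100 FPKM 11.8% against 2.55% and at 1000 FPKM or more 17.5% against 0.641%. Among 7111 protein-coding genes with a mean of 10 FPKM or more, 2802 (39.4%) had a CV under 10% and 241 (3.39%) a CV of 50% or more.

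**Figure D5:**
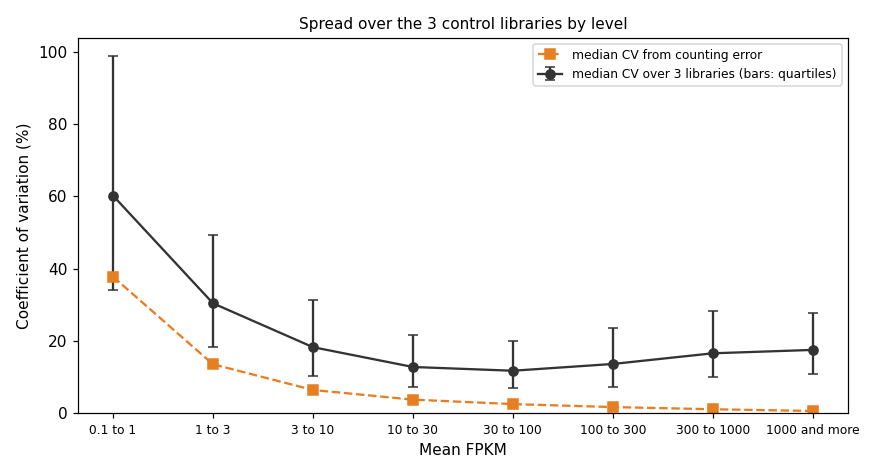
Median CV over the 3 control libraries by mean FPKM, with bars from the lower to the upper quartile over genes, and the median CV that counting error alone gives. The observed median is 11.8% at 30 to 100 FPKM and is 17.5% at 1000 FPKM or more, where counting error gives 0.641%.

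Genes with the lowest CV were ordinary cellular machinery. Emc3, of the complex that inserts membrane proteins, was at 34.9, 34.9 and 34.8 FPKM, the histone demethylase Kdm3b at 21.7, 21.8 and 21.8 FPKM, and the kinases Mapkapk2 and Map4k2 at 88.4, 88 and 88.3 FPKM and 23.6, 23.5 and 23.6 FPKM. Riok1, RGD1305350, Arhgef18, Ppp2r5a, Med25, Rab14, Hadhb and Cpsf1 completed the 12 lowest, all with a CV under 0.5%. These CVs lie under those that counting error gives (2.90% for Emc3), so they set no order of stability.

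At the other end, 71 entries that reached 10 FPKM in a library differed by 10-fold or more between the highest and the lowest library, which is 0.877% of the 8098 entries that reached that level. Protein-coding entries made up 52 of them. In 20 of these a single library was low and in 13 a single library was high, spread over all 3 libraries, and 19 were graded. Tma7, a ribosome-associated protein, was at 102, 3.76 and 4.53 FPKM, and Hba-a3, a minor alpha globin, at 0, 0 and 67.7 FPKM. LOC103690005, described as a tubulin-folding cofactor, was at 0.425, 0.666 and 36.9 FPKM, and LOC679739, described as a subunit of complex I, at 1.04, 36.1 and 2.05 FPKM. Seen outside the naming rule, Selenow, a selenoprotein, was at 247, 451 and 8.53 FPKM and Ube2b, a ubiquitin-conjugating enzyme, at 18.1, 0.998 and 16.7 FPKM. Of the 12 highest CVs the other entries were Alb, RT1-Ba and Ahsp, given above, and AABR07051551.1, AABR07060992.2, AABR07051730.1, AABR07065792.2 and AABR07051678.1, which carry no description. The part of sequence variants or of reads shared with copies in these genes was not tested.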

How the data were processed

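RNA-seq of rat spleen was deposited as a table of read counts and a table of FPKM. Per the submitters' processing notes, reads were aligned with HISAT2 2.0.5 and the genome named is mRatBN7.2. The sources used here do not give the counter, annotation or strand setting, so reads of overlapping or antisense genes cannot be told apart. Raw counts per gene were deposited by the authors without normalization. FPKM values were deposited by the authors, scaled by gene length and by a per-library total. Coordinates in the tables were printed as deposited, and their build was not settled.

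The control columns were matched to samples by name. Levels, ranks, CVs, class shares and list medians were computed from FPKM with Python 3.11.15, pandas 2.3.3 and numpy 2.4.6. The biological coefficient of variation came from counts with edgeR 4.0.16 (TMM) in R 4.3.3, with DESeq2 1.42.0 size factors as an alternative, and was tested on simulated data. Figures were drawn with matplotlib 3.10.9. No groups were compared, so no p-value is given. The 1525 unnamed gene models were kept in totals.

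Genes were named by rule: the 30 highest, the 4 highest of each list and members under 0.1 FPKM in all 3 libraries, the 3 highest of each class, the 15 highest transcription factors and non-coding entries, the 12 highest and 12 lowest CVs among protein-coding genes with a mean of 10 FPKM or more, the cyclooxygenases, splenic identity factors and reference genes. The text describes a selection of these, some genes are not reported here, and other genes were named after their values were seen. Members and lists were chosen with earlier results of these data known. Of 765 distinct list symbols 736 were found. Intervals and floors cover counting error only.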

Additional observations from a re-analysis of the deposited data

How the results depend on the processing

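No paired analysis was possible because a single group was described. On counts in place of FPKM, which removes the scaling by length, the 100 highest genes held 24.5% of the total, ribosomal proteins 8.27%, mitochondrial protein-coding genes 3.60% and haemoglobins 1.29%. The median CV was 18.7% on TPM, 12.6% over genes with a mean of 10 FPKM or more and 25.5% with no minimum. Leaving out each library in turn gave median CVs from 7.87% (without control 1) to 17.5% (without control 2). The common biological coefficient of variation was 0.314 with no low-count filter, and from 0.165 (without control 1) to 0.315 (without control 2) with a library left out. With members at 1 FPKM or more only, the order of the cell type lists had a Spearman's rho of 0.887 with the order given, and 7 of 20 list medians moved beyond their SD. The cause was not tested where no construction of the setting gives it. Of the 30 highest genes, 28 moved beyond their SD under TPM and 1 under TMM. With 3 libraries, low genes were limited by counting error.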
